A study of Mus musculus with 4 samples.

Results

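Expression of the JAK and STAT families was read by bulk RNA-seq in CD8 T cells specific for ovalbumin, which had been sorted from E.G7 tumours grown under the skin of mice. The 9 genes examined were chosen by name, as the rows Jak1, Jak2, Jak3, Stat2, Stat3, Stat4, Stat5a, Stat5b and Stat6 of each library's count table. All 9 were among the 14082 genes listed, and all 9 passed the filter on low counts that left 13358 genes for testing. Other genes of these families were not analysed here.

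E.G7 is a mouse T lymphoma line, derived from EL4, that makes ovalbumin. Every host mouse was 6 to 10 weeks old when injected and carried Smad4-fl/fl, the floxed form of Smad4. The 2 libraries labelled WT had this genotype alone, and the 2 libraries labelled KO had Cd8-cre Smad4-fl/fl. Cd8-cre drives recombination from a Cd8 promoter, so other cells in the tumour need not lose Smad4. No label says whether paired libraries of one genotype came from different animals, and p-values therefore measure only the spread between these libraries, which may be technical.

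Cytokine receptors of the types that use JAKs have no kinase of their own. A Janus kinase (JAK) bound to the receptor tail phosphorylates the receptor and then a STAT protein, which pairs with another STAT, enters the nucleus and binds DNA, often at the palindrome TTCNNNGAA. In CD8 T cells this route carries the signals of interleukins that sustain and arm the cells, such as IL-2, IL-15, IL-12 and IL-21, and of the interferons. SOCS proteins and CISH, which STATs induce, switch it off again.

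Summed counts ranged from 24366540 to 26218277 per library. Libraries labelled WT had 752 and 736 Smad4 counts, and libraries labelled KO had 779 and 1088, so Smad4 was not lower in the latter (edgeR adjusted p = 0.397). A count over the whole gene includes exons that Cre does not remove and reads of cells without Cre. These counts therefore do not show whether Smad4 was deleted in the libraries labelled KO, and this was not tested. All 10 T cell markers examined were detected, and 7 of 10 were lower in KO. Their sum was 3189.5 to 3245 CPM (counts relative to library size, scaled with TMM factors) in WT and 2197 to 2215 CPM in KO. E.G7 is itself a T lymphoma line, and its part in the T cell markers was not tested. Markers of other cells were present as well, and the monocyte and macrophage markers summed to more than the T cell markers in every library. The 10 monocyte and macrophage markers summed to 17392 to 18067.5 CPM in WT and 16994 to 17701 CPM in KO, with 1 higher and 1 lower, while the 10 neutrophil markers summed to 552 to 554 CPM in WT and 1735 to 1774 CPM in KO, with 9 higher. Of the neutrophil markers Ly6g was near 0 in every library, at 0.338 to 0.704 CPM. The 4 NK cell markers summed to 89.1 to 89.4 CPM in WT and 22.5 CPM in each KO library. Of these, Klre1 and Eomes were lower, while Ncr1 (0 to 0.704 CPM) and Klrb1c (0.593 to 1.05 CPM) were near 0 in every library. Mitochondrial transcripts took 10.3% ± 0.123 of counts in WT and 6.78% ± 0.299 in KO (SD, n = 2 each). The part of these differences in the results on JAK and STAT genes was not tested, and in bulk samples fewer cells of a type and less RNA per cell cannot be told apart.

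The bases just before the start sites of the members are shown first, because the 3 deepest falls were in Stat3, Stat4 and Jak3, and Jak1 is the kinase with the highest level. Each window holds the 250 bases before a RefSeq start (GRCm38.p6), written 5′ to 3′ on the gene's strand. They are chr11:100939541-100939790 (minus) for Stat3, chr1:51986898-51987147 (plus) for the first of the 2 Stat4 starts, chr8:71676133-71676382 (plus) for Jak3 and chr4:101265224-101265473 (minus) for Jak1. Capitals mark every match, on either strand, to 8 motifs searched: TTCNNNGAA (STAT), GTCTAGAC (SMAD), TGANTCA (AP-1), TGACGTCA (CREB and ATF), CCGGAAGT (ETS), GGGCGG (SP and KLF), TATAAA and CCAAT.
Stat3: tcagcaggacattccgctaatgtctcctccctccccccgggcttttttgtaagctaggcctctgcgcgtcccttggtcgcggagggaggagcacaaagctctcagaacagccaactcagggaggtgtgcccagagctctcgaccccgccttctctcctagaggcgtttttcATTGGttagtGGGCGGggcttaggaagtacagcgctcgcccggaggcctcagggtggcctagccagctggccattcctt
Stat4: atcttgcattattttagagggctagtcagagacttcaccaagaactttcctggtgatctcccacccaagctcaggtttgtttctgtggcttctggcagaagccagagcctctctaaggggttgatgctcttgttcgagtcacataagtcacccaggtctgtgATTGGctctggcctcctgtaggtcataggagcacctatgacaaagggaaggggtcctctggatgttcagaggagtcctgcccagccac
Jak3: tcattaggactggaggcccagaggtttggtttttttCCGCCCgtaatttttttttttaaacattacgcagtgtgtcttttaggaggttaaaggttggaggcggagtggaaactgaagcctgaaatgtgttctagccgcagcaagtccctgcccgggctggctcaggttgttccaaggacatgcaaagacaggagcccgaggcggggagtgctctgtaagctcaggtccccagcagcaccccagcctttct
Jak1: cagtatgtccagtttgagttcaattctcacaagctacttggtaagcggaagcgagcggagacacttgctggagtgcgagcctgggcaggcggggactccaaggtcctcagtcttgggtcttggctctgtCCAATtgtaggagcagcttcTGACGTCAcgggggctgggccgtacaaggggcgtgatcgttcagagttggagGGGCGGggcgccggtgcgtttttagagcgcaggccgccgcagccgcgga
The Stat3 window held CCAAT and GGGCGG once each, the Stat4 window CCAAT once and the Jak3 window GGGCGG once. Jak1 had the full palindrome TGACGTCA, with its first letter 101 bases before the RefSeq start, and this motif stood in 1.55% of 32851 windows of the same length. The Jak1 and Jak3 windows reach into the genes as GENCODE places them, up to 101265282 for Jak1 and from 71676296 for Jak3. GGGCGG and CCAAT are common, at 32.7% and 33.8% of windows. TTCNNNGAA was in 7.02% of windows and GTCTAGAC in 0.167%, and no window of any of the 9 members held either in full. For SMAD only the full string GTCTAGAC was searched. Its shorter part GTCT, which reads AGAC on the other strand, was not searched, and it occurs in each of the windows printed above. The absence of GTCTAGAC therefore does not show that these windows lack SMAD sites. A match is a string of letters and not a shown binding site, and its absence covers only the exact string searched in these 250 bases.

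Levels of different genes were compared by the deposited FPKM, a count scaled for gene length and for library size. Each is a level of the whole sample, in which markers of other cells were present, and not of CD8 T cells alone. Stat3, which IL-6, IL-10 and IL-21 receptors activate, had the highest level of the 9 in every library. It stood at 89.9 and 87.3 FPKM in WT libraries, where its mean was at the 95.8th percentile of listed genes, and at 53.0 and 50.9 FPKM in KO libraries. Stat6, the STAT of IL-4 and IL-13, followed with 46.8 ± 0.623 FPKM in WT and 43.3 ± 1.98 FPKM in KO (SD, n = 2 each). Jak1, the kinase shared by gamma chain, gp130 and interferon receptors, had 46.1 ± 0.477 FPKM in WT and 36.9 ± 2.01 in KO. Stat6 and Jak1 overlapped in WT and did not in KO. Jak3, whose use is tied to the common gamma chain, came next in both groups at 28.0 ± 0.997 and 17.6 ± 0.970 FPKM.

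Stat5b held the fifth place at 15.6 ± 0.195 FPKM in WT and 15.6 ± 1.06 in KO, and Stat2 the last at 6.18 ± 0.201 and 5.49 ± 0.616. Stat4, the STAT of IL-12, was sixth in WT with 11.9 ± 0.153 FPKM and eighth in KO with 7.13 ± 0.161. Stat5a was eighth in WT with 10.3 ± 0.127 FPKM, where it overlapped Jak2 (10.4 ± 0.287), and sixth in KO with 11.6 ± 0.247, clear of Jak2 (8.39 ± 0.251). All other neighbours in the order were apart in both libraries of their group. Stat3 made up 49.6% and 49.2% of the summed FPKM of the 6 STAT genes in WT and 39.0% and 37.9% in KO, while the share of Stat6 was 26.1% in each WT library and 30.9% and 33.3% in KO. Within the 3 JAK genes the share of Jak3 was 33.5% and 32.8% in WT and 27.9% and 28.1% in KO.

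**Figure D1:**
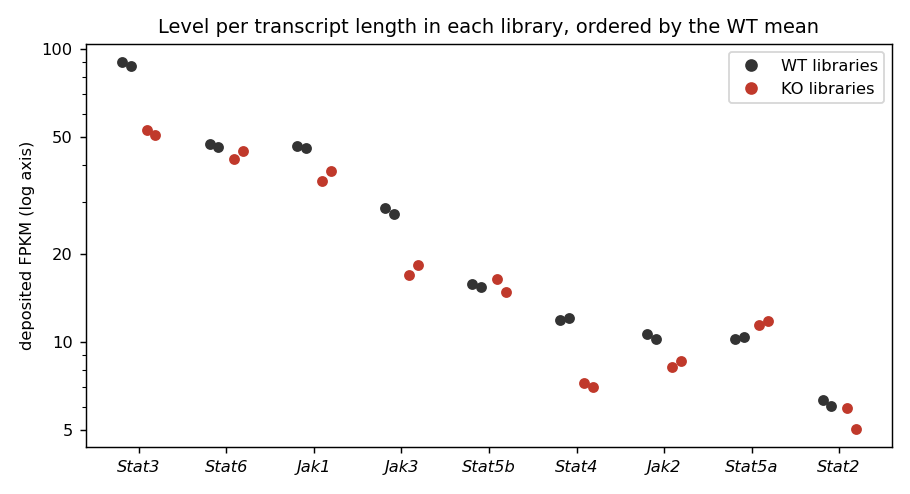
Deposited FPKM of the 9 genes (log axis) in each WT library (black points) and KO library (red points), ordered by the WT mean. Stat3 leads in all 4 libraries, and Stat4 and Stat5a change places, with Stat4 at 11.9 and Stat5a at 10.3 FPKM in WT and at 7.13 and 11.6 in KO.

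The comparison of libraries labelled KO with those labelled WT asks how RNA of these sorted cells differs with the Smad4 genotype. Of the 9 genes, 5 were lower in KO (Stat3, Stat4, Jak1, Jak2 and Jak3), 0 were higher and 4 did not pass an adjusted p of 0.05 (edgeR quasi-likelihood, Benjamini-Hochberg over 13358 genes). Over all tested genes 21.2% passed, 11.0% as lower and 10.1% as higher. The median log2 fold change of the 9 was -0.32, against -0.0037 over all genes. DESeq2 and limma-voom also called 0 members higher, and 1 was higher by an unadjusted p under 0.05. In the same libraries the median log2 fold change was -0.53 over T cell markers, -1.002 over NK cell markers, -0.061 over monocyte and macrophage markers and 1.57 over neutrophil markers. Of the NK cell markers, Ncr1 and Klrb1c were near 0 in every library. With library totals alone as the scaling, 4 members were lower and 1 higher, and over all genes 2105 were higher and 1013 lower in place of 1354 and 1472.

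Jak3 fell furthest of the kinases. It had 160 and 152 CPM in WT libraries and 93.5 and 101 in KO libraries. Both KO libraries lay below both WT libraries, and the fall was 1.60-fold (log2 fold change -0.68, standard error 0.068, edgeR adjusted p = 1.58e-05). Jak3 lies on chromosome 8 from 71676296 to 71690575 (mm10, plus strand) and overlaps Insl3 on the same strand, which makes its count uncertain, although Insl3 itself had only 9 to 26 counts.

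Jak1 stood at 349 and 343 CPM in WT and 265 and 287 in KO. The groups did not overlap, and Jak1 was 1.26-fold lower (log2 fold change -0.33, standard error 0.058, edgeR adjusted p = 0.00148). It lies on chromosome 4 from 101152367 to 101265282 (minus strand) and overlaps Raver2 on the opposite strand, which had 26 to 48 counts. Jak1 also overlaps 2 annotated genes that were not among those tested. Its call held under all 12 alternatives, with log2 fold changes from -0.39 to -0.24.

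Jak2, the kinase of erythropoietin-type, IL-12 and interferon gamma receptors, had 55.5 and 53.3 CPM in WT and 42.6 and 44.6 in KO. Its groups did not overlap either, with a 1.25-fold fall (log2 fold change -0.32, standard error 0.089, edgeR adjusted p = 0.0223). This call was lost when WT replicate 1 (edgeR adjusted p = 0.167) or WT replicate 2 (0.0774) was left out, and when libraries were scaled by their totals alone (0.0772). Over all its alternatives the adjusted p of Jak2 ran from 0.00824 to 0.167. Jak2 lies on chromosome 19 from 29251828 to 29313080.

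Of the STAT genes, Stat3 fell from 891 and 863 CPM in the WT libraries to 521 and 502 in the KO libraries. The gap between the groups was many times the difference within either, and the fall was 1.72-fold (log2 fold change -0.78, 95% confidence interval -0.89 to -0.67, edgeR adjusted p = 4.94e-07). Its size lay at the 88.1th percentile of all tested genes by absolute log2 fold change. With 13533 to 21569 counts per library, Stat3 was also the most deeply counted of the 9.

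Stat4, which drives interferon gamma production after IL-12, had 47.7 and 48.4 CPM in WT and 28.9 and 28.1 in KO. Each pair of libraries was close and the pairs were far apart, at a log2 fold change of -0.75 (95% confidence interval -0.97 to -0.54, edgeR adjusted p = 0.000159). The intervals of Stat3, Stat4 and Jak3 overlapped widely, so their falls could not be ranked. Stat4 lies on chromosome 1 from 51987148 to 52107189 and overlaps 2 annotated genes that were not among those tested.

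Stat5a and Stat5b, the paired STATs of IL-2, IL-7 and IL-15, did not pass the test in either direction. Stat5a had 75.8 and 76.9 CPM in WT and 83.8 and 86.6 in KO. It was the only member whose KO libraries both lay above both WT libraries, with a log2 fold change of 0.16 (95% confidence interval 0.0019 to 0.31, edgeR unadjusted p = 0.0477, adjusted p = 0.148). With library totals alone its adjusted p was 0.0270, the lowest over the alternatives, and the highest was 0.465. Stat5b had 90.4 and 88.6 CPM in WT and 93.3 and 85.0 in KO, so that the KO libraries bracketed the WT libraries. Its log2 fold change was -0.0063 (95% confidence interval -0.17 to 0.15, edgeR adjusted p = 0.967), and the interval leaves out changes as large as those of Stat3, Stat4 and Jak3.

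Reads of the 2 STAT5 genes can be split, because their transcripts are alike. Of all 50-base words in annotated Stat5a transcripts, 8.21% also occurred in Stat5b, and 11.0% of the Stat5b words occurred in Stat5a. No other pair among the 9 genes shared any on the transcript strand. Words on the opposite strand were not compared, which leaves out the overlapping ends of Stat5a and Stat3. The ratio of Stat5a to Stat5b FPKM was 0.651 and 0.674 in WT and 0.697 and 0.791 in KO. These ratios did not overlap between the groups, but the KO libraries differed from each other by more than the gap between the groups. With 2 libraries against 2, the smallest two-sided p that an exact permutation test allows is 0.333.

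The 3 genes Stat5b, Stat5a and Stat3 lie side by side on chromosome 11, at 100780731 to 100850724, 100859351 to 100885169 and 100885098 to 100939540. Stat5b and Stat5a are 8626 bases apart with no gene between them, and the ends of Stat5a (plus strand) and Stat3 (minus strand) overlap by 72 bases. Over this stretch the log2 fold changes were -0.0063, 0.16 and -0.78. The strand setting of the counting is not given in the sources used here, so reads in the shared 72 bases cannot be assigned.

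Stat6 and Stat2 were the remaining members that did not pass. Stat6 had 216 and 212 CPM in WT and 190 and 204 in KO, with both KO libraries lower and a log2 fold change of -0.12 (95% confidence interval -0.25 to 0.0086, edgeR adjusted p = 0.183). It lies on chromosome 10 from 127642986 to 127660957 and overlaps Nab2, on the opposite strand, which had 419 to 477 counts. Stat2, a partner of Irf9 in the complex that answers type I interferon, had 39.0 and 37.1 CPM in WT and 36.2 and 31.0 in KO. Its KO libraries were also the lower ones, at a log2 fold change of -0.18 (95% confidence interval -0.42 to 0.061, edgeR adjusted p = 0.294). Stat2 lies on chromosome 10 from 128270559 to 128292849.

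Counting direction alone, 7 members had both KO libraries below both WT libraries, 1 had both above and Stat5b overlapped. Over all tested genes, 59.8% had groups that did not overlap, 30.0% with KO below and 29.7% with KO above. Together the 9 genes took 0.187% and 0.182% of counts in WT and 0.140% and 0.141% in KO.

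**Figure D2:**
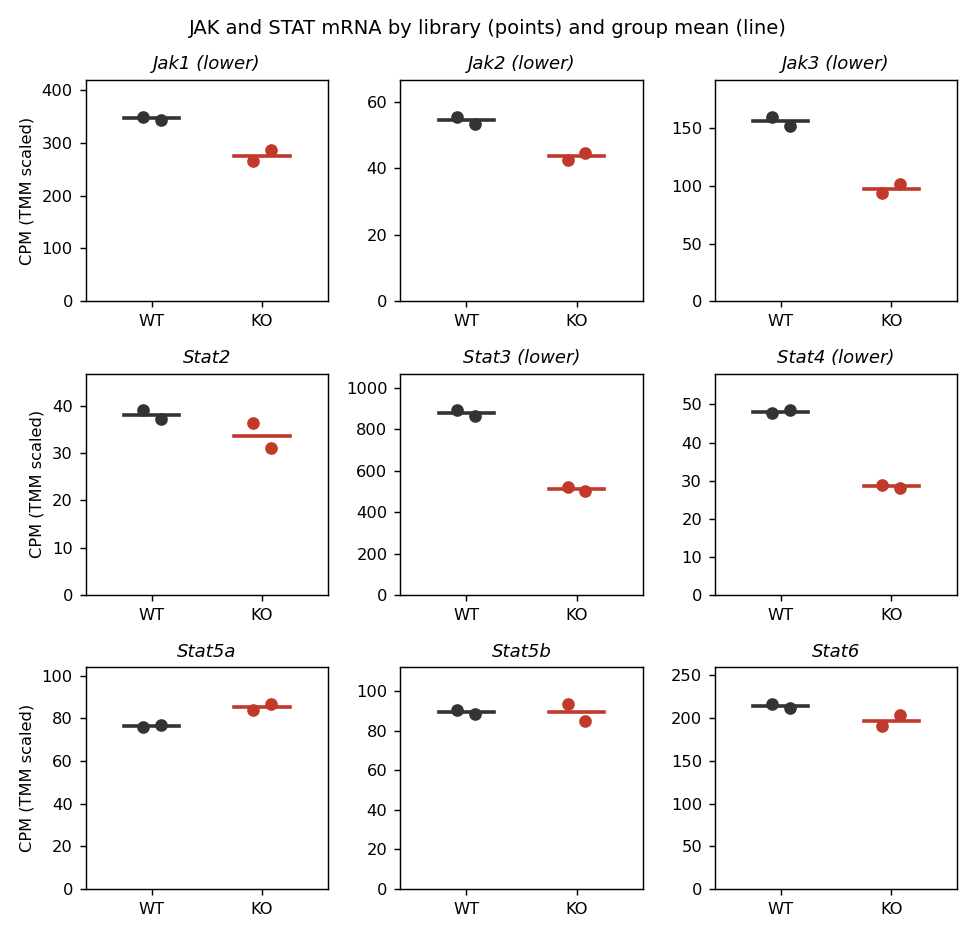
CPM (TMM scaled, axes from 0) of each gene in the 2 WT libraries (black) and 2 KO libraries (red), with a line at each group mean. Panels headed "lower" passed an adjusted p of 0.05, and Stat3 shows the widest gap, from 863 and 891 CPM in WT to 502 and 521 in KO.

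**Figure D3:**
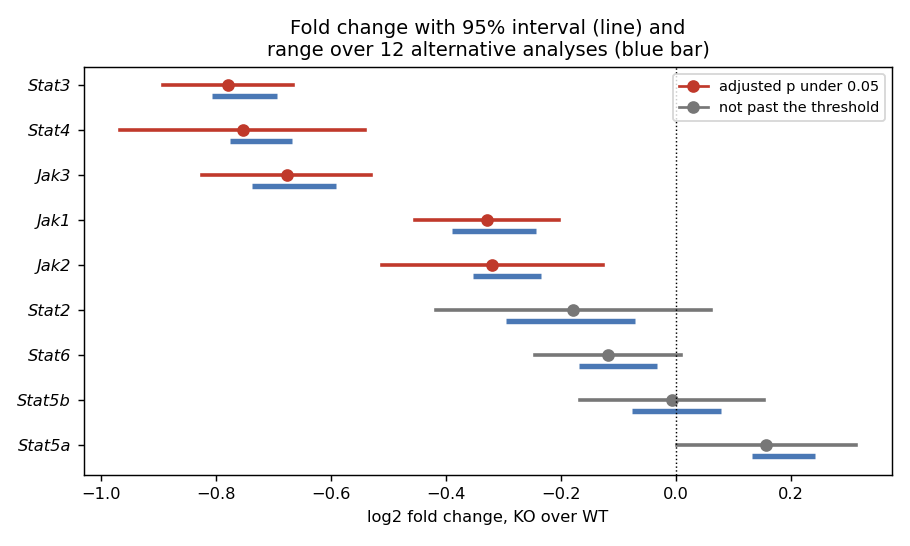
Log2 fold change of KO over WT for the 9 genes (points) with 95% confidence intervals (lines) and the range over 12 alternative analyses (blue bars). Stat3, Stat4 and Jak3 lie between -0.78 and -0.68, Jak1 and Jak2 near -0.3, and the interval of Stat5b spans 0.

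Genes with profiles most like those of the 5 members that fell were sought over the 4 libraries, by the Euclidean distance of centred log2 CPM among 9870 named genes with at least 5 CPM. Nearest to Stat3 were Bcl2a1d (distance 0.027), a survival gene of the BCL2 family with near-identical paralogs whose count is therefore uncertain, Dusp10 (0.036), a phosphatase of stress-activated kinases, and Stap1 (0.052), a signalling adaptor. Stat4 shared 2 of these, Dusp10 (0.035) and Bcl2a1d (0.043), after Ocel1 (0.031). Nearest to Jak3 were Cxcl10 (0.022), a chemokine, Kmt2a (0.033), a histone methyltransferase, and Tnfaip3 (0.035), an inhibitor of NF-kappaB signalling. Smpd4, Sema4a and Mad2l1bp were nearest to Jak1, at 0.013 to 0.015, and Cox7a2l, Khdc4 and Tmem106b to Jak2, at 0.0097 to 0.014. With 4 libraries such likeness is mostly a like fold change.

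Receptors of the gamma chain family, which use Jak1 and Jak3, were read in 1 list with those of the IL-12 family, which use Jak2, and calls in this list were mostly lower. Of 10 tested genes of the gamma chain and IL-12 receptor list, 5 were lower and 1 higher, and their median log2 fold change was -0.22. Beside the counts of this list and those that follow, 11.0% of all tested genes were lower and 10.1% higher. Il2rb, the signalling chain for IL-2 and IL-15, fell from 1152 and 1081 CPM to 450 and 484. Il21r fell 1.48-fold, from 349 ± 7.12 to 236 ± 8.84 CPM (SD, n = 2 each), and the common gamma chain gene Il2rg 1.16-fold, from 433 ± 28.0 to 373 ± 17.1 CPM. Il9r, the receptor chain of IL-9, rose 1.52-fold, from 16.2 ± 0.612 to 24.6 ± 0.415 CPM. Adjusted p-values (edgeR) were 1.49e-08 for Il2rb, 1.44e-05 for Il21r, 0.0239 for Il2rg and 0.00492 for Il9r. The lower count was 3 without WT replicate 1 or KO replicate 2, 2 without WT replicate 2, and 3 under scaling by library totals.

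The gp130 and IL-10 receptor list had 2 higher and 2 lower of 9 tested, with a median of 0.0029. Il10ra, the ligand-binding chain for IL-10, fell 1.53-fold (162 ± 14.6 to 106 ± 11.2 CPM, edgeR adjusted p = 0.000216), and Il27ra fell 1.39-fold (71.7 ± 9.50 to 51.6 ± 0.491 CPM, edgeR adjusted p = 0.00397). Lifr rose 1.35-fold and Il11ra1 1.32-fold (edgeR adjusted p = 0.0219 and 0.0449). None was higher without WT replicate 2 and 1 was higher without any 1 of the other 3 libraries, while the lower count was 1 without WT replicate 1. Il6st, which encodes gp130 itself, had 48.5 and 47.9 CPM in WT and 45.2 and 51.4 in KO (edgeR adjusted p = 0.988), a gene singled out after its values were seen.

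Of 5 interferon receptor genes, 2 were higher and 0 lower, with a median of 0.26. Ifnar2 was 1.24-fold higher (62.5 ± 3.99 to 77.3 ± 4.24 CPM, edgeR adjusted p = 0.0186) and Ifngr2, a receptor chain that binds Jak2, 1.20-fold higher (69.9 ± 2.15 to 83.8 ± 6.79 CPM, edgeR adjusted p = 0.0367). DESeq2 called 1 higher and 0 lower, limma-voom 3 and 0, and an unadjusted p under 0.05 gave 3 and 1. Leaving out WT replicate 2 gave 0 higher, KO replicate 1 gave 1, and KO replicate 2 gave 3 higher and 1 lower.

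The list of beta common and homodimeric receptors, with a few related chains, had 2 higher and 0 lower of 10 tested, with a median of 0.049. Over all tested genes 21.2% were called in either direction, so this share of calls is near that of all genes. Most receptors on it use Jak2. Csf3r, the G-CSF receptor, rose 2.46-fold, from 98.4 ± 0.900 to 242 ± 6.85 CPM (edgeR adjusted p = 1.49e-08). It is also 1 of the neutrophil markers, which summed to 552 to 554 CPM in WT and 1735 to 1774 CPM in KO. Il13ra1, a chain of the IL-4 and IL-13 receptor that pairs with the Jak1-bound chain Il4ra, rose 1.49-fold (32.0 ± 1.14 to 47.6 ± 6.30 CPM, edgeR adjusted p = 0.00294). DESeq2 and limma-voom also called 0 lower, and an unadjusted p under 0.05 gave 4 higher and 2 lower. The higher count was 4 without KO replicate 1, 4 under scaling by library totals and 3 without WT replicate 1, and 2 were lower without KO replicate 2.

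Of 25 listed cytokines that signal through JAKs, 18 could be tested, and 5 were higher and 1 lower (median 0.40). Ifng, the interferon gamma gene and a Stat4 target, fell from 161 and 168 CPM to 89.4 and 89.5. Osm, which encodes oncostatin M, a ligand of gp130 receptors, rose 1.52-fold (128 ± 0.929 to 194 ± 15.1 CPM, edgeR adjusted p = 3.52e-05). Il15 rose 1.82-fold (5.79 ± 0.0445 to 10.6 ± 0.629 CPM, edgeR adjusted p = 0.00766) and Il12a, a subunit of IL-12, 1.79-fold (3.59 ± 0.126 to 6.42 ± 0.331 CPM, edgeR adjusted p = 0.0301). The higher count was 1 without WT replicate 1, 2 without WT replicate 2 and 2 with DESeq2.

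Inhibitors of the pathway did not move together. Of 19 tested, 3 were higher, 3 lower and 13 did not pass, with a median of -0.061. Socs3, which restrains gp130 signals to Stat3, rose 1.23-fold (206 ± 11.2 to 254 ± 7.22 CPM, edgeR adjusted p = 0.00331). Socs2 rose 1.40-fold (22.8 ± 0.329 to 32.0 ± 3.21 CPM) and the tyrosine phosphatase gene Ptpn6 1.16-fold (596 ± 8.81 to 693 ± 20.3 CPM), with edgeR adjusted p = 0.0111 and 0.0101. Cish, a feedback inhibitor that Stat5 induces, fell 1.46-fold, from 29.9 and 27.0 CPM to 16.0 and 23.1 (edgeR adjusted p = 0.0294). The phosphatase genes Ptpn1 and Ptpn11 fell 1.17-fold and 1.27-fold (edgeR adjusted p = 0.00971 and 0.0224). Without WT replicate 1 the counts were 1 higher and 1 lower, and with library totals alone 4 higher and 0 lower. Socs1, the inhibitor of interferon and gamma chain signals, had 41.7 and 45.6 CPM in WT and 44.7 and 40.7 in KO, so its groups overlapped, a gene singled out after its values were seen.

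Genes known to be targets of each STAT were read as 5 lists, some of which share members. The Stat4 list had the lowest median, -0.52, with 8 of 14 lower, 0 higher and 6 that did not pass. It holds the cytotoxic genes Prf1 and Gzmb, and Il18rap, a chain of the IL-18 receptor, which fell 2.84-fold (155 ± 5.72 to 54.5 ± 4.58 CPM, edgeR adjusted p = 3.47e-08). Prf1 had 800 and 772 CPM in WT against 167 and 173 in KO, and Gzmb 397 and 399 against 86.6 and 93.6. The lower count lay between 7 and 9 over all 12 alternatives, and 2 were higher under scaling by library totals. DESeq2 and limma-voom called 0 higher, and 1 was higher by an unadjusted p under 0.05. T cell markers had a median of -0.53 in the same libraries and NK cell markers one of -1.002, and NK cells also express Prf1, Gzmb and Ifng. Of those NK cell markers only Klre1 and Eomes were lower, while Ncr1 and Klrb1c were near 0 in every library. The part of either cell type in these falls was not tested.

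In the Stat2 complex list, 6 of 14 tested genes were lower and 1 was higher, with a median of -0.39. The antiviral genes Oas1a (1.50-fold, 52.9 ± 0.327 to 35.2 ± 0.631 CPM), Xaf1 (1.55-fold) and Ifit1 (1.71-fold) fell, with edgeR adjusted p = 0.000634, 0.00625 and 0.0121. Bst2, which tethers virus particles to the cell, rose 1.26-fold (162 ± 6.32 to 204 ± 7.48 CPM, edgeR adjusted p = 0.00180). The lower count was 3 without WT replicate 1 and 2 without WT replicate 2.

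Targets of Stat3 moved both ways. Of 15 tested, 3 were higher and 5 lower, with a median of -0.061. Prdm1, which encodes the repressor Blimp-1, fell 1.55-fold (49.1 ± 2.06 to 31.8 ± 0.883 CPM, edgeR adjusted p = 0.000593). Junb fell 1.23-fold and Hif1a 1.18-fold (edgeR adjusted p = 0.00137 and 0.00968). Lcn2, a neutrophil granule gene that is also on the neutrophil marker list, rose 3.06-fold (7.49 ± 0.631 to 22.9 ± 0.0542 CPM, edgeR adjusted p = 1.09e-05), and Myc rose 1.30-fold (145 ± 0.00743 to 189 ± 4.34 CPM, edgeR adjusted p = 0.000519), as did Socs3. Without WT replicate 1 the lower count was 3, and it was 2 without WT replicate 2 or under scaling by library totals.

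Stat5 targets had 5 higher and 3 lower of 16, with a median of 0.086, and Stat6 targets 5 higher and 5 lower of 14, with a median of 0.049. Among Stat5 targets, Osm, Myc and Socs3 led the rises, and Tnfrsf4, which encodes the costimulatory receptor OX40 (1.29-fold, 189 ± 9.13 to 147 ± 4.54 CPM), Bcl2l1 and Cish the falls. The adjusted p-values of Tnfrsf4 and Bcl2l1 were 0.00109 and 0.0265 (edgeR). Without WT replicate 1 there were 3 higher and 1 lower, and 1 was lower when KO replicate 1 was left out or library totals were the scaling. Among Stat6 targets the macrophage genes Retnla (1.80-fold, 366 ± 11.2 to 203 ± 10.5 CPM), Chil3 (1.36-fold) and Alox15 (2.94-fold) fell, with edgeR adjusted p = 6.28e-07, 0.00341 and 0.0148. The chemokine gene Ccl22 (1.45-fold, 77.0 ± 3.34 to 111 ± 0.318 CPM) and the T cell transcription factor gene Gata3 (1.27-fold, 181 ± 3.04 to 230 ± 1.17 CPM) rose, with edgeR adjusted p = 0.000159 and 0.000781. Fcer2a, found on B cells, rose from 3 and 1 counts to 30 and 49 (edgeR adjusted p = 0.00416), beside B cell markers that summed to 6.64 to 6.88 CPM in WT and 13.8 to 16.1 CPM in KO. The higher count of Stat6 targets was 3 and the lower count 2 without WT replicate 1, 2 and 3 without WT replicate 2, and 5 and 3 without KO replicate 1, and scaling by library totals left 3 lower.

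**Figure D4:**
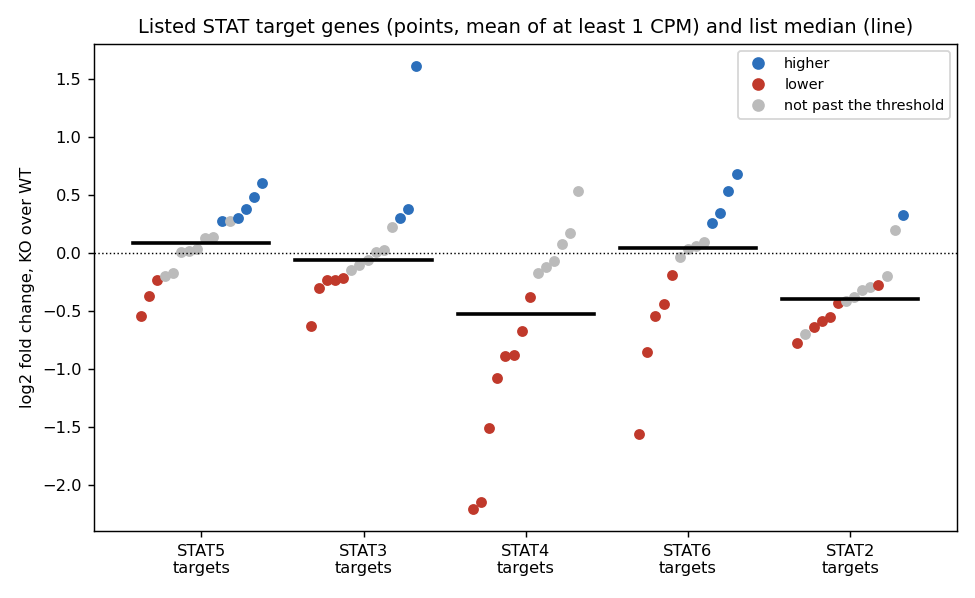
Log2 fold change of KO over WT for listed target genes of each STAT with a mean of at least 1 CPM (points, blue where higher, red where lower, grey where the test was not passed), with a line at the median of all tested genes in the list. The Stat4 list reaches lowest, to -2.21 for Prf1, and Fcer2a and Il21 are left out for their low level.

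The STAT palindrome was also searched in the windows of these target genes. It stood before 3 of 12 Stat4 targets with a window (Ifng, Il18r1 and Il12rb2) and 3 of 12 in the Stat2 complex list. It also stood before 2 each of 12 Stat5, 13 Stat3 and 11 Stat6 targets. Of all windows 7.02% held it, but the list counts are of genes, some of which have several windows. The same string was used for every list, and other spacings or elements that STAT complexes bind, as for Stat2 and Stat6, were not searched. All 3 of the Stat4 targets with a match were lower in KO, in a list with 8 of 14 lower, but matched genes of the other lists moved both ways. Ifit2, Oas1a and Chil3 were lower, Bst2, Socs3 and Ccl17 higher, and Bcl6 and Icam1 did not pass the test. Il18r1, a chain of the IL-18 receptor, had 46.3 and 43.3 CPM in WT and 21.3 and 21.3 in KO, and 1 of its windows held 2 matches, TTCTGGGAA and TTCCCAGAA. Il12rb2, the IL-12 receptor chain that recruits Stat4, had 10.0 and 11.1 CPM in WT and 6.24 and 7.08 in KO (edgeR adjusted p = 0.0287). The windows of Il12rb2 at chr6:67376189-67376438 (minus) and Ifng at chr10:118440796-118441045 (plus) are shown, with the palindrome alone in capitals, because these genes stand at the start and the end of the route through Stat4.
Il12rb2: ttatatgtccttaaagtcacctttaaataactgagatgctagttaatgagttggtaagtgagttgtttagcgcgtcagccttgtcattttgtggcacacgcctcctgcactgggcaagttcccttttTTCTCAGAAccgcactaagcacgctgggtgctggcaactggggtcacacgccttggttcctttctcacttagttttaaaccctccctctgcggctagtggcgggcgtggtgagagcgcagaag
Ifng: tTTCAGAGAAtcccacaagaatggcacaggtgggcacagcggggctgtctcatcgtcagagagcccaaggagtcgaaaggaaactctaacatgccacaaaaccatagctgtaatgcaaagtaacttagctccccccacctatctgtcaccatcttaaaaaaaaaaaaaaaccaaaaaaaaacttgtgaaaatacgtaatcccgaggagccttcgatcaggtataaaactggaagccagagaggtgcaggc
The match in Il12rb2 begins 123 bases before the start and that in Ifng 249 bases before it. No measurement of binding was made in these samples.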

How the data were processed

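Bulk RNA-seq of sorted tumour CD8 T cells was analysed in 2 libraries labelled WT and 2 labelled KO. Per the labels' protocols, Trizol was used to extract total RNA and BGI made the libraries. Tools named in the submitters' processing notes, without roles or order, are Bowtie2, featureCounts, DESeq2, edgeR and Trim Galore 0.4.4, with the build mm10. No annotation or strand setting is given there. The deposited counts, per the file headers whole numbers per gene, were tested as they stand. The deposited FPKM, computed by the authors per the file headers, served only to compare levels between genes.

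The test was edgeR 4.0.16 (R 4.3.3) with TMM factors, filterByExpr (at least 10 counts, total of at least 15), glmQLFit (robust) and glmQLFTest. Calls were made at a Benjamini-Hochberg adjusted p under 0.05 over 13358 genes. A ± sign gives the SD over 2 libraries, and the standard error of a log2 fold change comes from its F statistic. The step was tested on simulated data, drawn with the same spread beyond counting noise for every gene. That test does not cover the choice of scaling or a spread that differs between genes. Alternatives were other scalings and filters, a replicate block, leaving out each library, DESeq2 1.42.0 and limma-voom (limma 3.58.1). For the pathway lists these were added after the data were seen. Libraries of a group differed beyond counting noise (chi-square per degree of freedom 7.50 and 9.83), so none was merged.

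The members, the 11 pathway lists, the 9 marker lists and the rules were chosen with earlier results of these data known. All 9 members were named, and up to 3 called genes of each list per direction, by p. For each called member the 3 genes of nearest profile were named. Positions are from GENCODE M21 (GRCm38, mm10), counted from 1. Promoter sequences are from RefSeq on GRCm38.p6. All 9 members matched both tables by name, although the start of a gene can differ between them.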

Additional observations from a re-analysis of the deposited data

How the results depend on the processing

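Stat3, Stat4, Jak1 and Jak3 were lower and past the threshold under all 12 alternatives, and Jak2 was lower under all 12 but missed it under 3. Leaving out 1 library at a time gave 4 to 5 lower members and 0 higher. Library totals alone gave 1 higher member, Stat5a, and 2105 higher genes in all. Leaving out 1 library gave 714 to 1605 higher and 831 to 1787 lower genes, with the lowest counts when a WT library was left out. The log2 fold change of Stat5b changed sign with library totals alone (0.079) and upper quartile factors (0.0016), and ran from -0.075 to 0.058 when 1 library was left out. The cause was not tested.

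The replicate number as a block gave 5 lower and 0 higher members, with 1393 higher and 1522 lower genes over all. The labels give a shared number and no shared source, and the deviations of same-numbered libraries had a correlation of -0.0309 across genes, so the pairing was not used. With the block, 1 Stat4 target was higher.

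Stat2, the member with the lowest FPKM, had the largest standard error of the 9 log2 fold changes, 0.11. Its KO libraries stood at 36.2 and 31.0 CPM. The part of depth in this standard error was not tested.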
